A study of Mus musculus with 12 samples.

Results

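Cd36, Plin4 and Lipe are 3 genes of fatty acid handling that were taken by symbol from a table of 658 genes measured by poly(A) RNA sequencing. The cells were labelled as wild-type mouse bone marrow mesenchymal stem cells (BMSCs). Such cells are the plastic-adherent stromal cells of marrow that can form bone, cartilage and fat cells. All cultures were in osteogenic medium, whose additions were 50 µM ascorbic acid, 10 mM sodium β-glycerophosphate and dexamethasone at 100 nM in medium with 15% serum, so both groups had received the glucocorticoid. In 6 libraries the labels name the agent α-Asaronel, read here as α-asarone, a phenylpropanoid of Acorus oil, and in 6 they name it control. The labels state no dose, exposure time or vehicle. The replicates are called biological, but nothing ties them to separate mice, and a p value here refers to the variation among libraries, which may be technical. The series title names PPARG, the nuclear receptor of fat cell differentiation, as the factor through which the agent acts, and all 3 genes are known as PPARG-regulated in fat cells.

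Fatty acids enter a cell in part through CD36, a membrane protein that binds long-chain fatty acids and, in macrophages, oxidised lipoproteins. Inside the cell they are stored as triglyceride in lipid droplets, whose surface is coated by perilipins. PLIN4 is a perilipin found on small, newly forming droplets. Hormone-sensitive lipase, the product of Lipe, hydrolyses mainly diacylglycerol at the droplet when cyclic AMP signalling is active, and it also cleaves cholesteryl esters. The 3 genes thus stand for entry, coat and breakdown.

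The 3 genes lie on different chromosomes, all on the minus strand of GRCm38 in GENCODE release M21. Cd36 (ENSMUSG00000002944) spans chr5:17781690-17888801 with 6 annotated transcripts. Plin4 (ENSMUSG00000002831) spans chr17:56100591-56109803 with 2 transcripts of 5755 and 5756 bases. Lipe (ENSMUSG00000003123) spans chr7:25379527-25398710 with 8 transcripts of 359 to 3713 bases. Exons of Lipe share 918 bases with the antisense gene 4732471J01Rik, and those of Plin4 share 17 bases with Hdgfl2 on the opposite strand. Whether the libraries kept strand is not stated, so reads from these shared bases cannot be assigned with certainty. No gene overlaps Cd36. Every estimated count of the 3 genes was a whole number in all 12 libraries.

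The sequences before the RefSeq starts (GRCm38.p6) are shown because the members rose together between the groups and the title names a DNA-binding receptor. Each runs 5′ to 3′ on the gene's strand, and bases in exons of coding genes are left out. Capitals mark matches to any of the motifs searched on both strands.
Cd36, chr5:17835897-17836146: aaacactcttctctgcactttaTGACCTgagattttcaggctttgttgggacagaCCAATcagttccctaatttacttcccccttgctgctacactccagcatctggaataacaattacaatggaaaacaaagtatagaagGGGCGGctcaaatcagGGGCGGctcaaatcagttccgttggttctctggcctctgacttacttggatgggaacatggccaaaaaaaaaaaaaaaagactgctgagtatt
Plin4, chr17:56109804-56110032: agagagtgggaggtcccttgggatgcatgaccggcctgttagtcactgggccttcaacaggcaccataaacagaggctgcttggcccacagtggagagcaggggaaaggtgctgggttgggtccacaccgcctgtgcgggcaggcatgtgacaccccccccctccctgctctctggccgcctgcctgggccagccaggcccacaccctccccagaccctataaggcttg
Lipe, downstream start, chr7:25390113-25390351: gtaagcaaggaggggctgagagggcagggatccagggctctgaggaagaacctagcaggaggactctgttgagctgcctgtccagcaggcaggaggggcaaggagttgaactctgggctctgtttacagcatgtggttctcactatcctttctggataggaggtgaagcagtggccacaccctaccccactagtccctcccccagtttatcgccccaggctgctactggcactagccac

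One motif was the nuclear receptor half-site AGGTCA. The element bound by PPARG with its partner RXR was searched as 2 copies of AGGTCA in the same direction with 1 base between them, which contains the half-site, and more loosely with AGGNCA for each copy. The others were the TATA box TATAAA, the CCAAT box, the GC box GGGCGG, the E-box CACGTG and a C/EBP-type motif spelled TTGCNNAA. In windows of 250 bases before the start, Cd36 had 1 AGGTCA, on the opposite strand from position -228, a motif that 14.0% of 32851 RefSeq promoter windows hold. It also had 1 CCAAT and 2 GGGCGG, which 33.8% and 32.7% of windows hold. Plin4 had 1 CCAAT, at position -18 in the bases left out, and the downstream start of Lipe had no match. The upstream start of Lipe, whose window lies in an annotated exon and is not shown, had 6 GGGCGG and 1 CACGTG (6.02% of windows). The repeat of the half-site was in none of the 4 windows and is in 0.0335% of all windows, and the looser repeat was also in none, against 0.338%. TATAAA (12.4% of windows) and TTGCNNAA (9.56%) were in none of the 4 either. Coding transcripts of Cd36 and of Lipe have 6 distinct annotated 5′ ends each, and only windows before the RefSeq starts used were searched. For Cd36 that was the start at chr5:17835896. A missing match says only that these letters are not in these windows.

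All 3 genes were higher with α-asarone. Plin4 was 1.35-fold higher (95% confidence interval 1.28 to 1.43), Lipe 1.32-fold (1.23 to 1.41) and Cd36 1.18-fold (1.09 to 1.27). These folds come from edgeR's quasi-likelihood test fitted to the estimated counts of 512 genes, in which 155 genes (30.3%) passed at an adjusted p under 0.05, 66 of them higher (12.9%). By log2 fold change Plin4 ranked 15th, Lipe 17th and Cd36 26th of the 512. By mean TPM, a unit that divides by transcript length and scales each library to the same total, Cd36 ranked 20th, Lipe 346th and Plin4 379th.

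Cd36, the entry gene, was by far the most abundant of the 3. In controls it had 282 TPM in the lowest library, a median of 308 and 334 in the highest, and with α-asarone 315, 364 and 428 TPM. The groups overlapped, since α-asarone replicate 5 lay below 3 of the controls, while the other 5 α-asarone libraries lay above every control. The mean rose from 308 ± 22.7 to 366 ± 38.8 TPM (SD, n = 6), a difference of 58.5 TPM. EdgeR gave a log2 change of 0.24 ± 0.05 (SE, adjusted p = 8.41e-04), and the exact 2-sided permutation p of log2(TPM + 1) was 0.0130. Estimated counts of Cd36 ranged from 5112 to 11765 per library.

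Plin4, the droplet coat gene, had 11.4 TPM in the lowest control, a median of 11.9 and 12.9 in the highest. With α-asarone it had 14.7, 16.2 and 17.0 TPM. All 6 α-asarone libraries lay above all 6 controls, a pattern toward higher values that 30 of the 512 genes (5.86%) showed, and 73 (14.3%) in either direction. Means were 11.9 ± 0.505 and 16.1 ± 0.851 TPM (SD, n = 6), and edgeR put the log2 change at 0.43 ± 0.04 (SE, adjusted p = 5.28e-10). The exact 2-sided permutation p of 0.00216 is the smallest that 6 against 6 libraries allow.

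Lipe, the lipase gene, had 14.2 TPM in the lowest control, a median of 15.4 and 16.6 in the highest. With α-asarone it had 19.9, 20.7 and 22.9 TPM, again without overlap. Means were 15.4 ± 0.950 and 20.9 ± 1.12 TPM (SD, n = 6), with a log2 change of 0.40 ± 0.05 (SE) at an edgeR adjusted p of 1.23e-07 and the same smallest exact permutation p of 0.00216. Estimated counts were 300 to 639 per library for Lipe and 519 to 1122 for Plin4. Adjusted over the 3 genes, the permutation p values were 0.0130 for Cd36 and 0.00325 for each of the others.

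**Figure D1:**
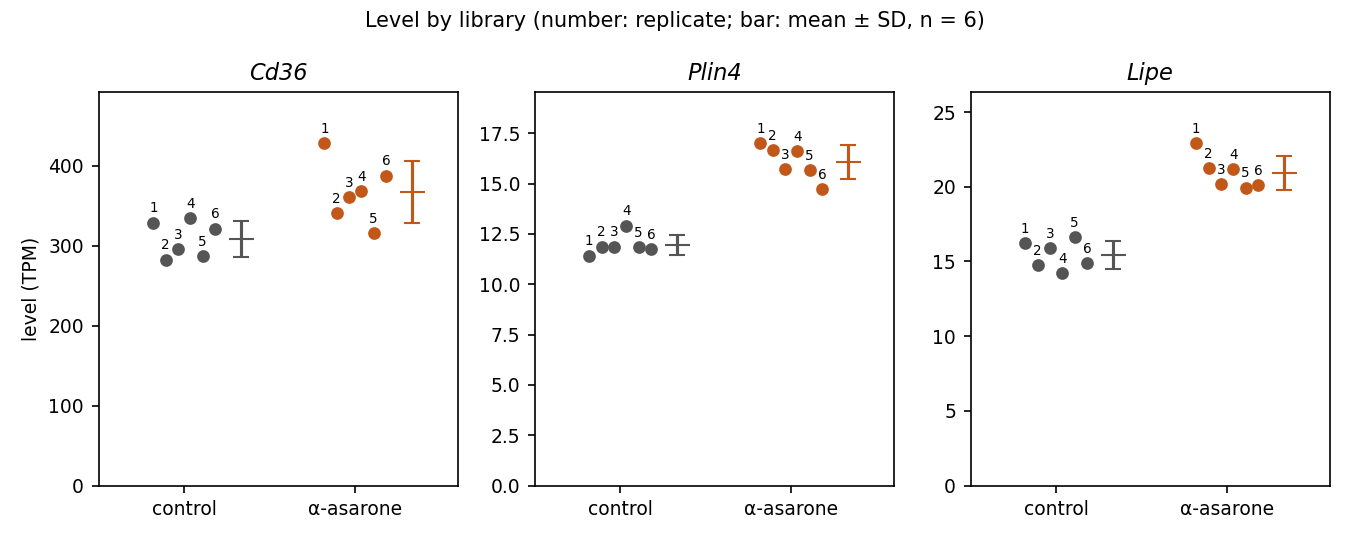
Level in TPM (vertical axis, from 0) of Cd36, Plin4 and Lipe in each control and α-asarone library, with the replicate number beside each point and bars for the mean ± SD of 6 libraries. The groups are separate for Plin4 and Lipe, while Cd36 of α-asarone replicate 5 (315 TPM) lies among the controls (282 to 334 TPM).

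Whether the members rose by different amounts was tested with the ratio of their TPM within a library, which does not depend on how libraries are scaled. The ratio of Plin4 to Cd36 was 0.0389 ± 0.00284 in controls and 0.0442 ± 0.00474 with α-asarone (SD, n = 6). The difference in log2 ratio was 0.18 (95% interval 0 to 0.35, exact permutation p = 0.0519, adjusted over 3 ratios p = 0.0779). The ratio of Lipe to Cd36 was 0.0504 ± 0.00554 and 0.0575 ± 0.00461, a difference in log2 ratio of 0.19 (interval 0.015 to 0.375, exact permutation p = 0.0455, adjusted p = 0.0779). A larger rise of the droplet genes than of Cd36 therefore missed the threshold after adjustment. On the TPM scale Cd36 stood 25.8 ± 1.93-fold above Plin4 in controls and 22.8 ± 2.49-fold above it with α-asarone.

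Plin4 and Lipe kept nearly the same proportion to each other. Their TPM ratio was 0.778 ± 0.0756 in controls and 0.768 ± 0.0243 with α-asarone (SD, n = 6). The difference in log2 ratio was −0.01 (interval −0.15 to 0.105, exact permutation p = 0.851). In controls the ratio ran from 0.704 to 0.909, the latter in replicate 4, and with α-asarone from 0.732 to 0.786.

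**Figure D2:**
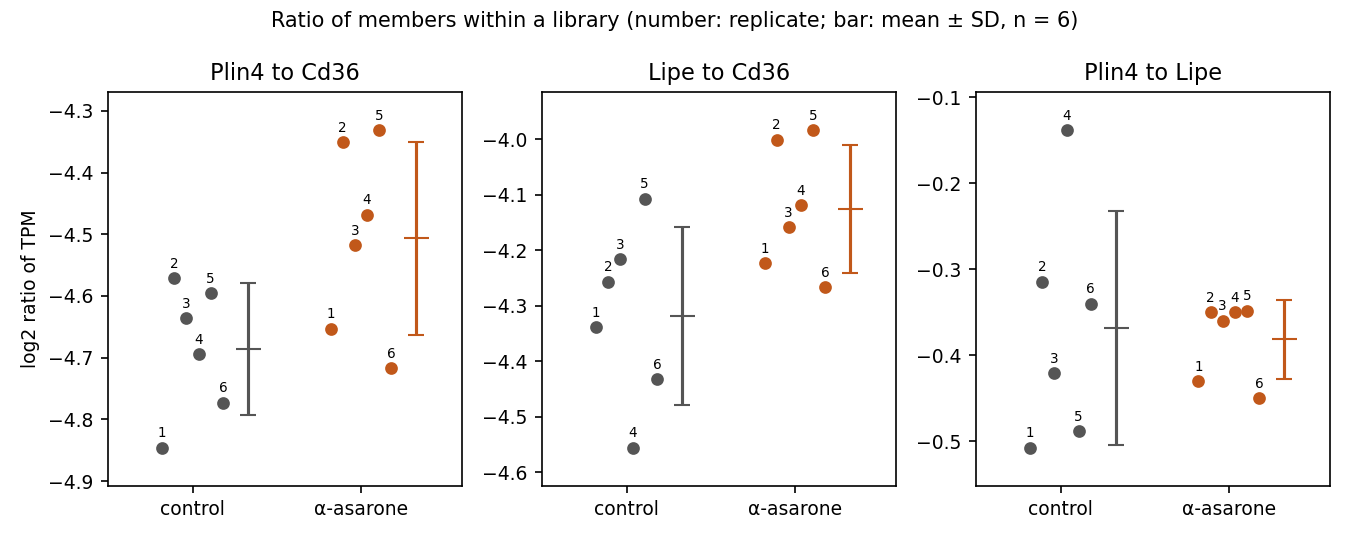
Log2 ratio of TPM values within each library (vertical axis) for the 3 pairs of genes, with replicate numbers and bars for the mean ± SD of 6 libraries. The Plin4 to Cd36 and Lipe to Cd36 ratios shift up by 0.18 and 0.19 with overlap, and the Plin4 to Lipe ratio shifts by −0.01 with its highest value in control replicate 4.

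Library by library within a group, the members did not move together in a way that passed a test. Covariation was computed on log2(TPM + 1) as Pearson's r and Spearman's rho, in 15 relations with p values adjusted over them. Both genes of a pair are read from the same libraries, and a group offers only 6 points. Cd36 and Plin4 had r = 0.28 (rho = 0.03, exact permutation p = 0.765 and 1) in controls and r = 0.19 (rho = 0.26, exact permutation p = 0.715 and 0.658) with α-asarone. Without the 2 libraries farthest from the median of Cd36, r became −0.82 and −0.79, so the positive values rest on those libraries. Control replicate 4 and α-asarone replicate 1 each decided a sign, since r was −0.83 without the former and −0.35 without the latter.

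Cd36 and Lipe had r = −0.34 (rho = −0.26, exact permutation p = 0.507 and 0.658) in controls and r = 0.67 (rho = 0.49, exact permutation p = 0.138 and 0.356) with α-asarone. The α-asarone value became −0.64 without the 2 farthest libraries, replicates 1 and 5, and the control value −0.50. Plin4 and Lipe had r = −0.67 (rho = −0.60, exact permutation p = 0.115 and 0.242) in controls and r = 0.82 (rho = 0.94, exact permutation p = 0.0236 and 0.0167, adjusted p = 0.242 and 0.25) with α-asarone. Without the 2 farthest libraries these became 0.41 in controls and 0.99 with α-asarone, so that the negative control value rests on replicates 1 and 4 together. Whether r differed between the groups was not tested.

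Over all 12 libraries, as deviations from the group means, r was 0.22 for Cd36 and Plin4 (rho = 0.16), 0.21 for Cd36 and Lipe (rho = 0.20) and 0.12 for Plin4 and Lipe (rho = 0.17). The permutation p values within groups were 0.534, 0.509 and 0.709 for r and 0.652, 0.562 and 0.635 for rho, with adjusted p of 0.802, 0.802 and 0.883 for r and 0.823 in each case for rho. Without the 2 farthest libraries r was −0.13, −0.39 and 0.54. Without α-asarone replicate 1 alone, r was −0.0449, −0.19 and −0.15.

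**Figure D3:**
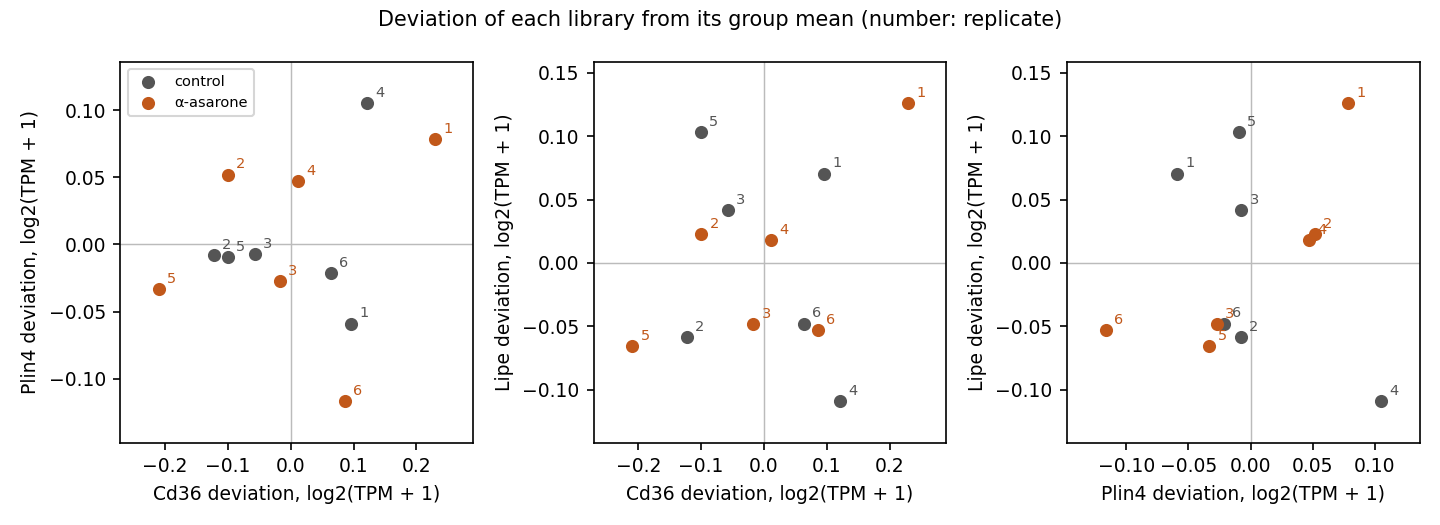
Deviation of each library from its group mean, on the log2(TPM + 1) scale, for each pair of the 3 genes, with control and α-asarone libraries in different colours and replicate numbers beside the points. No pair forms a line over the 12 libraries (r = 0.22, 0.21 and 0.12), and control replicate 4 and α-asarone replicate 1 lie far from the centre.

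Counting error, taken as the mean of 1 over the square root of the count, was compared with the coefficient of variation (CV) between libraries of a group on the count scale, as TMM-scaled CPM, and in TPM. For Cd36 it was 1.19% in controls and 1.11% with α-asarone, against a CV of 8.91% and 10.9% in CPM and of 7.37% and 10.6% in TPM. For Plin4 it was 3.89% and 3.39%, against 4.16% and 4.65% in CPM and 4.23% and 5.30% in TPM. For Lipe it was 5.03% and 4.43%, against 5.91% and 1.75% in CPM and 6.16% and 5.35% in TPM. The CV of Cd36 was thus many times its counting error in both groups, while that of Lipe with α-asarone was below its counting error in CPM and above it in TPM.

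A further property of the deposited values concerns Lipe. The ratio of estimated count to TPM, after scaling for the library, is proportional to the transcript length used for a gene, and was set to 1 at the control mean. For Plin4, whose 2 transcripts differ by 1 base, it stayed between 0.992 and 1.004 in all 12 libraries. For Cd36 it ran from 0.977 to 1.03. For Lipe it ran from 0.970 to 1.01 in controls and from 0.913 to 1.004 with α-asarone. The lowest value was in α-asarone replicate 1, the library with the highest Lipe TPM. TPM is the divisor of this ratio, so the 2 are not independent. Lipe had 505 CPM in α-asarone replicate 1 and 504 in replicate 2, against 22.9 and 21.3 TPM. The group means for Lipe were 1 ± 0.0158 and 0.970 ± 0.0339 (SD, n = 6, exact permutation p = 0.0758, adjusted over the 3 genes p = 0.227), a difference that did not pass. In CPM the coefficient of variation of Lipe with α-asarone was 1.75%, against 5.35% in TPM. On that count scale the r of Plin4 and Lipe with α-asarone was 0.54 instead of 0.82.

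**Figure D4:**
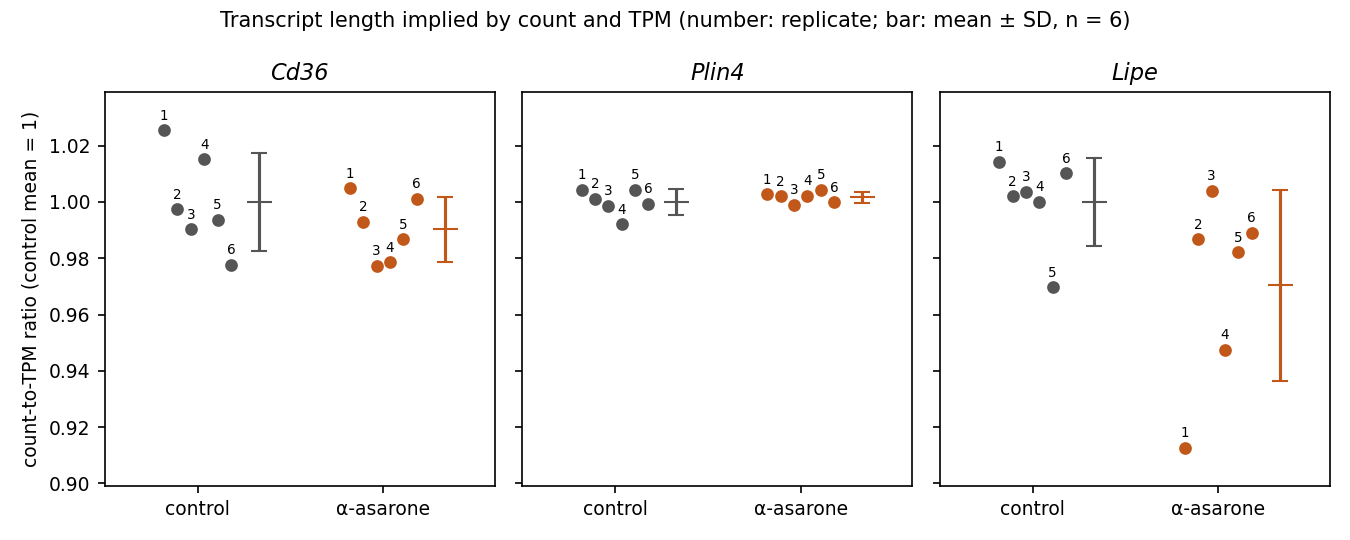
Ratio of estimated count to TPM per library (vertical axis, control mean set to 1) for the 3 genes, with replicate numbers and bars for the mean ± SD of 6 libraries. Plin4 is nearly constant, and Lipe reaches 0.913 in α-asarone replicate 1.

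The genes whose deviations from the group means were most like those of each member over the 12 libraries were different for each. For Cd36 they were Col18a1, a basement membrane collagen gene (r = 0.90), Nab1, a corepressor of EGR factors (r = 0.90), and Bcap31, an endoplasmic reticulum membrane protein gene (r = 0.86). Col18a1 rose from 35.1 ± 2.56 to 49.7 ± 4.32 TPM (SD, n = 6), and the other two did not pass. For Plin4 they were Mrpl4, a mitochondrial ribosomal protein gene (r = 0.79), the interleukin 7 receptor gene Il7r (r = 0.77), which rose from 1.57 ± 0.497 to 2.59 ± 0.718 TPM, and the transcription factor gene Nfix (r = 0.72). For Lipe they were Ifrd1, a transcriptional coregulator gene (r = 0.87), Siae, a sialic acid esterase gene (r = 0.80), and Mmd, a monocyte-to-macrophage differentiation gene (r = 0.67). Of these, Ifrd1 and Mmd rose with α-asarone (edgeR log2 fold change 0.15 and 0.35), while Siae fell (−0.15, adjusted p = 0.00372). The estimated count of Siae was fractional in every library and that of Mmd in 83.3% of them. By this r the members ranked 130th to 224th for each other. These r are descriptions chosen as the highest of many.

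Pparg itself did not pass. Its mean was 41.7 ± 1.97 TPM in controls against 40.2 ± 3.26 TPM in the treated libraries (SD, n = 6), with an edgeR log2 change of −0.05 ± 0.05 (SE, adjusted p = 0.430). Its deviations had r = −0.42 with Cd36 (rho = −0.37), r = 0.43 with Plin4 (rho = 0.44) and r = −0.03 with Lipe (rho = 0). The permutation p values were 0.246, 0.228 and 0.939 for r and 0.288, 0.180 and 1 for rho, with adjusted p of 0.615, 0.615 and 0.939 for r and 0.762, 0.762 and 1 for rho. Without the 2 farthest libraries r was −0.33, −0.16 and 0.08. On CPM in place of TPM it was −0.11, 0.49 and 0.20.

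Of 198 genes in 9 lists of lipid handling, 15 were in the table and all 15 were tested, with 6 higher, 3 lower and a median log2 fold change of 0.03. Without the members 3 of 12 were higher and 3 lower, with a median of −0.03, against 12.9% higher, 17.4% lower and a median of 0.0007 over all 512. The other rises were of Angptl4, the gene of a secreted inhibitor of lipoprotein lipase (11.8 ± 0.963 to 32.0 ± 1.93 TPM), Nr1h3, which encodes the oxysterol receptor LXRα (14.04 ± 1.63 to 19.7 ± 0.775 TPM), and Prkar2b, a regulatory subunit of the cyclic AMP-dependent kinase that phosphorylates the lipase (42.0 ± 2.37 to 47.6 ± 1.84 TPM). The falls were of Apoc2, the activator of lipoprotein lipase (50.9 ± 2.53 to 27.0 ± 2.85 TPM, its count fractional in 66.7% of libraries), Klf4 (50.4 ± 1.97 to 40.8 ± 1.02 TPM) and the retinoic acid receptor gene Rarg (50.2 ± 1.74 to 43.1 ± 1.105 TPM). SDs are of 6 libraries.

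By list, fatty acid uptake had Cd36 higher and Cav2, a caveolin gene, not called (log2 fold change 0.03 ± 0.04 SE). The droplet list had Plin4 alone, and the lipolysis list had Lipe and Prkar2b, both higher. Triglyceride synthesis was represented by Agpat3, an acyltransferase gene (97.04 ± 5.55 and 96.99 ± 3.45 TPM, SD, n = 6), and fatty acid oxidation by the receptor gene Ppard (25.8 ± 1.89 and 24.3 ± 1.86 TPM), neither of which passed. Of 4 PPAR and lipid nuclear receptor genes 1 rose (Nr1h3) and 1 fell (Rarg), and of 4 adipocyte differentiation genes 2 rose (Cd36 and Angptl4) and 1 fell (Klf4). Of 4 lipoprotein genes 1 rose (Angptl4) and 1 fell (Apoc2), and the scavenger receptor list had Cd36 alone. In the deposited annotation the PPAR signaling pathway held Cd36 and Plin4 but not Lipe, and 4 of its 6 tested genes rose, against 12.9% of all genes tested, with none lower and a median of 0.34. Besides the members the rises were of Nr1h3 and Angptl4, 2 of the 4 other genes of the term. The term lipid droplet held Plin4 and Lipe, the only 2 of its 4 tested genes to rise, beside Cav2 and Bcap31. The term lipid catabolic process held Lipe as its 1 rise among 4 tested genes, beside falls of Apoc2 and the phospholipase gene Pla1a (20.1 ± 1.43 to 15.5 ± 1.82 TPM).

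**Figure D5:**
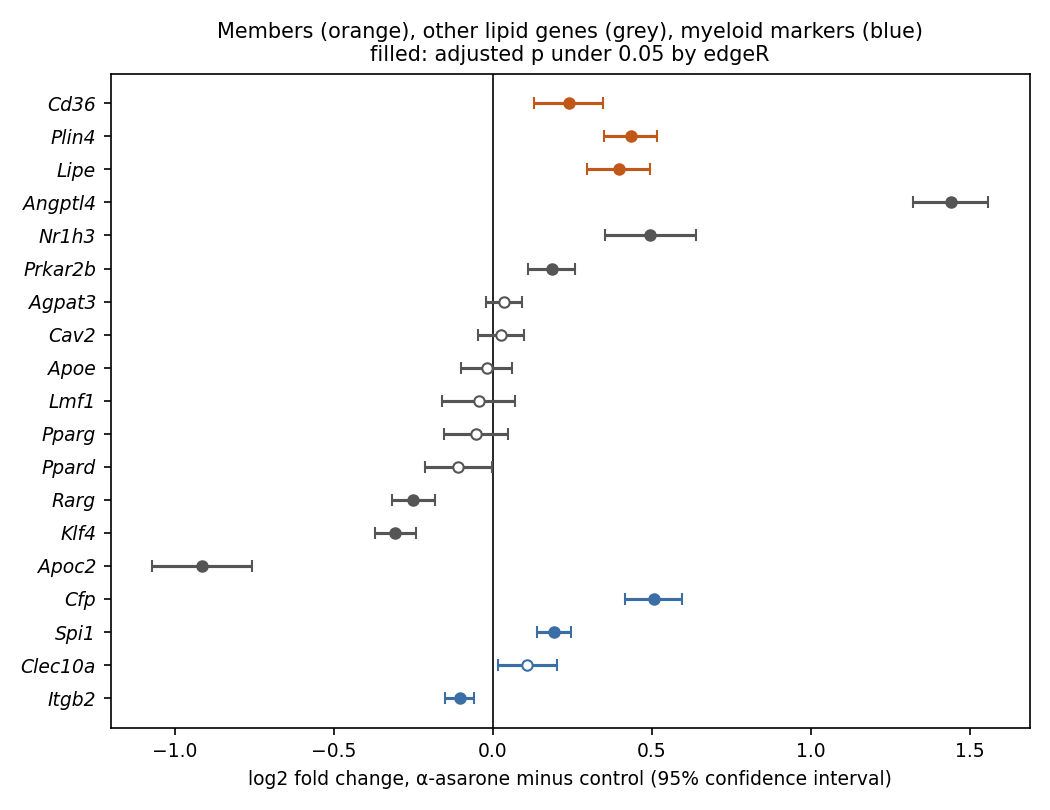
Log2 fold change with its 95% confidence interval (horizontal axis, α-asarone minus control) for the 3 genes, 12 other genes of the lipid lists and 4 myeloid markers, with filled points for an edgeR adjusted p under 0.05. The 3 members lie at 0.24, 0.43 and 0.40, and the other lipid genes run from −0.91 for Apoc2 to 1.44 for Angptl4.

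CD36 is also a macrophage protein, and marrow cultures can hold blood cells. Of 19 macrophage and other myeloid markers 4 were in the table. Their summed level was 834 to 923 TPM in controls and 967 to 1123 TPM with α-asarone. Cfp, the properdin gene, rose from 332 ± 23.1 to 469 ± 45.6 TPM, and Spi1, the gene of PU.1, rose from 143 ± 5.13 to 163 ± 8.88 TPM. Itgb2, the leukocyte integrin β2 gene, fell from 293 ± 5.91 to 273 ± 7.29 TPM (SD, n = 6). The lectin gene Clec10a, at 103 ± 4.17 and 114 ± 13.2 TPM, did not pass. The lowest value of any of the 4 was 97.0 TPM, for Clec10a in a control, so transcripts of these markers were present in every library. Which cells the Cd36 transcripts came from was not tested. In bulk RNA a change in the number of cells of a type and in RNA per cell cannot be told apart.

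Within the groups Cd36 was lower in the libraries where the summed myeloid level was higher (r = −0.68, rho = −0.64, permutation p = 0.0322 and 0.0396, adjusted p = 0.242 and 0.297), and r was −0.75 without the 2 farthest libraries. This relation did not pass the adjustment. Between the groups both were higher with α-asarone. Of the 4 genes summed, Cfp had the highest mean TPM and rose, while Itgb2 fell. For Plin4 and Lipe r with the myeloid sum was 0.24 and −0.06 (rho = 0.34 and −0.11, permutation p = 0.508 and 0.844 for r and 0.316 and 0.762 for rho, adjusted p = 0.802 and 0.904 for r and 0.762 and 0.879 for rho), and 0.11 and −0.12 without the 2 farthest. The part of myeloid cells in the rises was not tested.

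Of the other markers, the mesenchymal list had 2 of 12 genes in the table, Col1a1, which fell from 1852 ± 141 to 1304 ± 78.8 TPM, and Col6a1, which rose from 641 ± 8.55 to 724 ± 18.3 TPM (SD, n = 6). Of 10 osteoclast markers only 1 was in the table, Acp5, which fell from 66.6 ± 7.57 to 29.8 ± 5.07 TPM. Of 5 smooth muscle markers only 1 was, the contractile gene Cnn1, which fell from 26.1 ± 3.495 to 8.14 ± 1.13 TPM. The endothelial genes Vwf and Esam, 2 of 8 markers, summed to at most 2.11 TPM. The lymphoid genes Cd79a, Cd3g and Vpreb3, 3 of 10 markers, summed to at most 0.099 TPM. Of 15 osteoblast and osteocyte markers 4 were in the table, of which 2 could be tested and Col1a1 was the 1 called, while the osteocyte gene Sost was listed at 0 in every library. The 9 adipocyte markers, such as Adipoq and Plin1, and the 8 erythroid and platelet markers were not analysed here. Total estimated counts over the table were 843595 to 1224256 per library.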

How the data were processed

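Estimated counts and TPM per gene and library were deposited by the authors in 1 table, per the file headers, and the submitters' processing notes name GRCm38 and mm10. No source used here names the aligner or quantifier. The 658 genes analysed sum to 5.36% to 5.67% of the TPM total, so count totals are not library depths. Estimated counts were rounded, and edgeR 4.0.16 (R 4.3.3, quasi-likelihood, TMM factors 0.976 to 1.03, no covariate) was fitted to the 512 genes with at least 1 TPM in at least 6 libraries, with Benjamini-Hochberg adjustment. The SE of an edgeR log2 change was derived from its F statistic, and the confidence interval from that SE and a t quantile. Limma 3.58.1 and DESeq2 1.42.0 were alternatives. Ratios and covariation used TPM, exact permutation or 100000 resamples within groups, and intervals of ratio differences came from inverting the exact test. The edgeR step was also run on simulated data, and that outcome is not given here. The members, lists and tests were chosen with earlier results of these data known. The genes named are the 3 members, up to 4 called genes per list or else up to 2 of highest TPM, and the 3 genes most like each member. Cav2, Pparg, Clec10a, Pla1a and Vpreb3, and the comparison of implied lengths, were added after values were seen. Replicate pairs within a group differed by 2.27 to 11.9 chi-square per degree of freedom, above sampling noise, so none was counted as a copy.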

Additional observations from a re-analysis of the deposited data

Results flagged for a closer look

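Dixon's criterion was applied to 78 sets of 6 libraries, of which chance alone flags about 3.9, and 4 had an extreme member. For Plin4 it was control replicate 4, at 12.9 TPM against at most 11.9 TPM in the 5 remaining controls and still below every α-asarone library. For Lipe the count-to-TPM ratio of control replicate 5 was 0.970, while no other control was below 1.00. Cd79a had 0.099 TPM in control replicate 2 and was listed at 0 in the others. Control replicate 2 also had the smallest summed count, 843595, below the 1068546 of the next control.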

How the results depend on the processing

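The rises of Cd36, Plin4 and Lipe passed under all 11 other settings and with each library left out, with log2 fold changes of 0.24 to 0.28, 0.31 to 0.48 and 0.34 to 0.44, and of 0.19 to 0.28, 0.42 to 0.46 and 0.37 to 0.42. The largest adjusted p for Cd36 was 0.0142 (DESeq2). Genes changed numbered 116 to 189, and 138 to 152 with a library left out. With table totals 127 genes were higher and 62 lower (67.2% of calls higher against 42.6%), the median shifted by 0.04, and Nfix changed sign, to 0.0012. In that setting Agpat3, Bcap31 and Nab1 passed (adjusted p = 0.0389, 0.0392 and 0.0130) and Itgb2 did not (0.0510). Ifrd1 did not pass in the 3 limma fits (0.258 in each). Mrpl4 did not pass without control replicate 1 (0.0678) or α-asarone replicate 2 (0.0586), and Ppard passed without α-asarone replicate 3 (0.0370). The cause was not tested.

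Same-numbered libraries had correlations of −0.003 to 0.128, and 2 of 12 libraries correlated best with their own number, so the numbers were not taken as pairs. With the replicate block Cd36 had 0.24 ± 0.03 (SE) and 168 genes changed. The log2 ratio changes of Plin4 to Cd36 and Lipe to Cd36, at 0.18 and 0.19, came under the threshold only with the replicate block. Its sign-flip test gave adjusted p = 0.0469 for both, but it relies on the pairing that was not taken. Every same-numbered difference was positive, so each p before adjustment was the smallest that 64 sign flips allow. With estimated counts the changes were 0.20 and 0.16 (exact permutation, adjusted p = 0.143 and 0.146). With a library left out the adjusted p by exact permutation ran from 0.0519 to 0.149 for both. The Plin4 to Lipe difference was 0.0333 with estimated counts and −0.041 to 0.0328 with a library left out. The Plin4 to Cd36 difference was 0.14 to 0.22 and the Lipe to Cd36 difference 0.15 to 0.23 with a library left out.

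No covariation passed in any setting. On CPM r over 12 libraries was −0.24 for Plin4 and Lipe, 0.20 for Lipe and Pparg and −0.11 for Cd36 and Pparg. For Cd36 and Lipe it was −0.05 in controls and 0.36 with α-asarone on CPM, against −0.34 and 0.67 on TPM. With a library left out, r over both groups ran from −0.0449 to 0.48 for Cd36 and Plin4, −0.19 to 0.44 for Cd36 and Lipe, −0.15 to 0.54 for Plin4 and Lipe, −0.17 to 0.16 for Lipe and Pparg and −0.19 to 0.0525 for Lipe and the myeloid sum. Within controls it ran from −0.83 to 0.67 for Cd36 and Plin4 and −0.69 to 0.0247 for Cd36 and Lipe, and with α-asarone from −0.35 to 0.70 for Cd36 and Plin4. The depth of Plin4 and Lipe limits what within-group covariation can show.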
